A study of Homo sapiens with 19 samples.

Results

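The 10 genes described here, GAS5, SNHG1, SNHG3, SNHG5, SNHG6, SNHG7, SNHG8, SNHG12, SNHG15 and SNHG16, are long noncoding genes that carry small nucleolar RNAs (snoRNAs) in their introns. They were chosen by name, and their values are the spliced reads on their annotated introns in GENCODE 29 (GRCh38). They are 10 of 22761 genes with reads on annotated introns, and they hold 109 of the 361515 annotated introns. All 10 passed the filter on low counts in the tests below.

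A snoRNA host gene is transcribed and spliced like a messenger RNA gene, and each snoRNA is trimmed out of an intron after splicing. Box C/D snoRNAs (SNORD) guide methylation of ribosomal RNA, and box H/ACA snoRNAs (SNORA) guide its pseudouridylation. The joined exons of most of these hosts encode no long protein, and in several hosts, GAS5 and SNHG1 among them, the spliced RNA is known to be degraded by nonsense-mediated decay, which acts on RNA that is being translated in the cytoplasm. A read that crosses a splice junction therefore reports the spliced host RNA, and neither the unspliced RNA nor the mature snoRNA was measured.

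The series measured ribosomal RNA-depleted RNA in 19 libraries of human cell lines. A375, a melanoma line, gave 1 library each of total RNA, of RNA from the nuclear pellet and of RNA from the cytoplasmic supernatant after lysis with Triton X-100. Total RNA came also, in 1 library each, from the embryonic kidney line HEK293 and from wild-type cells of HUES66, a line of human embryonic stem cells. The other 14 libraries came from HUES66 cells, all kept in doxycycline at 1 µg/ml, in 4 arms: control (genotype WT in the labels), RBFOX2 total knockdown (total KD), and knockdown of the RBFOX2 isoform N-short (N-short KD) or N-long (N-long KD). RBFOX2 binds RNA and acts on splice site choice. The title of the series gives Cas13d, an RNA-guided enzyme that cuts RNA, as the means of knockdown. The libraries fall into 4 sets. The 48 hr and 96 hr sets hold all 4 arms, 24 hr replicate 2 holds no total KD, and 24 hr replicate 1 holds no library titled as a control. Wild-type HUES66 carries in its description the name given to the controls and the library series of 24 hr replicate 1, and its labels give no doxycycline or time. Each arm has 1 library in a set, and nothing in the labels says that the sets came from separate cultures, so p-values measure the spread between these libraries, which may be technical.

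The 14 control and knockdown libraries held 9622841 to 14625040 junction reads, and the other 5 held 6499183 (A375 nuclear) to 27937149 (wild-type HUES66), with 96.66% to 98.32% of reads on annotated introns. The stem cell markers summed to 3823 CPM (counts scaled to the junction reads of the library) in wild-type HUES66, against 9.99 in A375 and 47.7 in HEK293. A375 had reads for SOX10 (100.3 CPM) and MITF (38.99 CPM), regulators of the melanocyte lineage, but only 0.476 CPM of the pigment cell gene PMEL. HEK293 had reads for the kidney gene EYA1 (33.11 CPM) and few for PAX2 (1.15 CPM), and PAX8 had none there. In the A375 fractions MALAT1, a nuclear RNA, had 68.16 CPM in the nuclear and 2.33 CPM in the cytoplasmic library, while TUG1, also on the nuclear list, had 23.7 and 16.07 CPM. Of 10 mRNAs chosen as cytoplasmic, 3 were at least 2-fold higher in the cytoplasmic library (median log2 ratio of nuclear to cytoplasmic -0.49), and VIM had 2141 CPM in the nuclear and 2130 CPM in the cytoplasmic library. RBFOX2, the targeted gene, had 119 to 126 CPM in the controls. It had 48.2 to 78.7 CPM with total KD, 72.7 to 87.6 CPM with N-long KD and 107 to 120 CPM with N-short KD.

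The hosts differ in how many snoRNAs they carry. GAS5 (chr1:173863900-173868882, minus strand) carries 11 snoRNAs, 10 SNORD and the box H/ACA RNA SNORA103, and has 20 annotated introns. SNORA103 lies whole only in the GAS5 intron chr1:173865283-173866527, which had 3 reads over all 19 libraries. SNHG1 (chr11:62851988-62855914, minus strand) carries 9 snoRNAs and has 21 annotated introns. SNHG16 (chr17:76557766-76565348, plus strand) carries 3 snoRNAs, all SNORD, SNHG5 (chr6:85660950-85678748, minus strand) carries 2 SNORD, and SNHG6 carries 1. Among the hosts with SNORA alone, SNHG3 (chr1:28505980-28510892, plus strand) and SNHG7 (chr9:136721366-136728184, minus strand) carry 2 each. SNHG8 (chr4:118278709-118279823, plus strand) and SNHG15 (chr7:44983023-44986961, minus strand) carry 1 each. SNHG12 (chr1:28578538-28583132, minus strand) holds both kinds, as GAS5 does by annotation, with 1 SNORD and 3 SNORA. Both annotated introns of SNHG3 are also introns of its neighbour on the same strand, RCC1, which encodes a regulator of the Ran GTPase, so a read there cannot be assigned to either gene alone. Genes on the opposite strand overlap GAS5, SNHG6, SNHG7, SNHG12 and SNHG16, and each junction was assigned by the strand given for it in the files.

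Of the exons used in the isoform results, 3 are shown here with the snoRNAs of the introns around them. Another exon of SNHG1 and the sites of GAS5 and SNHG6 named below are not shown. Sequences are read 5′ to 3′ on the transcribed strand. For exons, capitals mark the exon and lower case the 15 bases of the exon before and the exon after it, as they are joined in the spliced RNA (GENCODE 29 transcripts). The 51-base exon of SNHG1 (chr11:62854888-62854938) lies between the introns of SNORD27 and SNORD28, and the line after it is the junction made when that exon is left out.
SNHG1 51-base exon: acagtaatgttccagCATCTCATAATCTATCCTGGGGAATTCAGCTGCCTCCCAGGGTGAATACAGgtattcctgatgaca
SNHG1 without it: acagtaatgttccaggtattcctgatgaca
The 194-base exon of SNHG8 (chr4:118278944-118279137) lies just before the intron that holds SNORA24.
SNHG8 194-base exon: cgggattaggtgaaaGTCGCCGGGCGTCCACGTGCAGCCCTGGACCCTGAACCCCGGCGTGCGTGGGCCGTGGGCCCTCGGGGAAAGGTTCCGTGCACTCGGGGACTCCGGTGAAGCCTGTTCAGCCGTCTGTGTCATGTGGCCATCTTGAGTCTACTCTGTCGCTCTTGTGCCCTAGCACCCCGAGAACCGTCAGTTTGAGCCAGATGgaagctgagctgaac
SNHG8 without it: cgggattaggtgaaagaagctgagctgaac
The 99-base exon of SNHG16 (chr17:76558945-76559043) lies between the introns of SNORD1C and SNORD1B.
SNHG16 99-base exon: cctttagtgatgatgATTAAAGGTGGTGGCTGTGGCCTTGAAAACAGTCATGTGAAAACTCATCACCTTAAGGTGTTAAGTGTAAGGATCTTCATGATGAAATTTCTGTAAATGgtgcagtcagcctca
SNHG16 without it: cctttagtgatgatggtgcagtcagcctca

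The snoRNAs of these introns are shown to mark what is cut out between the exons. In box C/D snoRNAs capitals mark the letters of the C box (TGATGA, searched in the first 25 bases) and of the D box (CTGA, searched in the last 19 bases). In the box H/ACA snoRNA they mark the ACA near the end. Only the transcribed strand was searched.
SNORD27 (SNHG1): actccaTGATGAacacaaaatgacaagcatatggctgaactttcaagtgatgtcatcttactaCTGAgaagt
SNORD28 (SNHG1): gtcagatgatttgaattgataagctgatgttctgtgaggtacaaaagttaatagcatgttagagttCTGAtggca
SNORD1C (SNHG16): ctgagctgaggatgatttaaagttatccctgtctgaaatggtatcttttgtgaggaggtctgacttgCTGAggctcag
SNORD1B (SNHG16): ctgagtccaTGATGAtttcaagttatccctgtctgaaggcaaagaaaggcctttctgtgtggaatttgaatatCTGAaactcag
SNORA24 (SNHG8): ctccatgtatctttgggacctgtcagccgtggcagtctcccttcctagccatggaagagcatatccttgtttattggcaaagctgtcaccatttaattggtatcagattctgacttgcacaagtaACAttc
The C box letters were found in 193 of 288 annotated SNORD transcripts (67%) and the D box letters in 270 of 288 (93.8%). ACA stood within the last 6 bases in 133 of 149 SNORA transcripts (89.3%). SNORD28 and SNORD1C have the D box letters and no exact match to the C box letters in the searched window. Leaving out the 51-base exon of SNHG1 joins the introns of SNORD27 and SNORD28 into 1 intron with both snoRNAs, and leaving out the 99-base exon of SNHG16 does the same for SNORD1C and SNORD1B.

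How abundant each host was can be compared between genes on the most-read intron, since a read there depends on 1 junction and not on the number of introns. Over the 14 HUES66 libraries SNHG5 was the most abundant, at 133 to 196.6 CPM across its most-read intron, and SNHG15 the least, at 2.18 to 6.03 CPM. GAS5 had 48.52 to 97.41 CPM on this scale. SNHG5 also had the most reads per intron in wild-type HUES66 (183.8 CPM) and in HEK293 (86.72 CPM). In A375 GAS5 (158.5 CPM) and SNHG6 (153.8 CPM) stood above SNHG5 (107.3 CPM), and SNHG15 was lowest at 3.21 CPM. All 10 genes had reads in all 19 libraries.

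**Figure D1:**
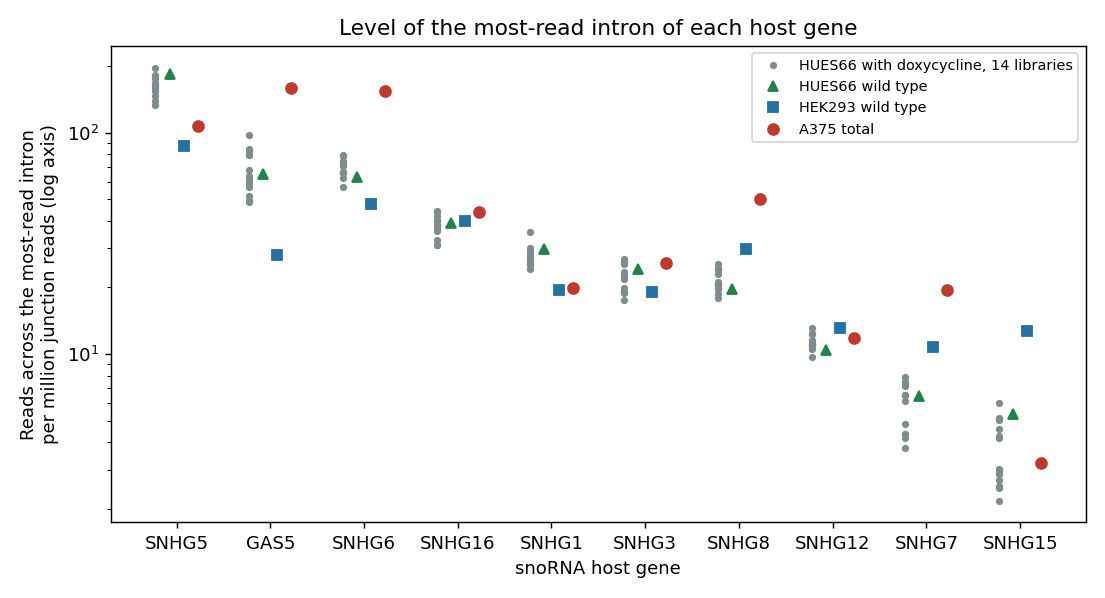
Reads on the most-read annotated intron of each host gene, in CPM on a log axis, with 1 point per library (the A375 fractions are not drawn). SNHG5 was highest and SNHG15 lowest in the HUES66 libraries, and in A375 GAS5 and SNHG6 stood above SNHG5.

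Summed over all introns of a gene, the lines differed most in GAS5 and SNHG15, in opposite directions. GAS5, named for its rise in growth-arrested cells, had 1298 CPM in A375, 493.8 CPM in wild-type HUES66 and 217.4 CPM in HEK293. The ratio of A375 to HEK293 was 5.97 (95% exact interval of a ratio of 2 counts 5.70 to 6.26), and that of HUES66 to HEK293 was 2.27 (2.17 to 2.38). SNHG15 had 28.42 CPM in HEK293, 13.82 CPM in HUES66 and 6.78 CPM in A375, so that HEK293 had 4.19 times the level of A375 (3.14 to 5.68). SNHG6, the host of SNORD87, was 3.30 times as high in A375 as in HEK293 (3.02 to 3.60) and 2.37 times as high as in HUES66 (2.24 to 2.52). SNHG7 and SNHG8 were 2.82 (2.45 to 3.25) and 2.40 (2.18 to 2.65) times as high in A375 as in HUES66. SNHG5 was 2.18 times as high in HUES66 as in HEK293 (2.09 to 2.27). With the mean of the 3 HUES66 controls this SNHG5 difference fell under 2-fold (log2 ratio of HEK293 to HUES66 -0.85). SNHG1, SNHG3, SNHG12 and SNHG16 stayed within 2-fold in every pair of lines. Each line has 1 library, so these ratios have no replicate check, and the intervals cover counting error only.

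Counted at 2-fold, 2 of the 10 were higher in A375 and 1 was higher in HEK293, where 19.3% and 18.8% of 12603 genes were past 2-fold. Against HUES66, A375 was higher in 4 (22.3% of 13846 genes) and HUES66 in 1 (22.7%). HEK293 was higher than HUES66 in 1 (20% of 13621 genes) and HUES66 in 2 (20.1%). The largest gap from these backgrounds was the 4 of 10 hosts higher in A375 than in HUES66, and no test was made of it with 1 library per line. Scaling by TMM factors would move all ratios by 0.11 (A375 to HEK293), -0.07 (A375 to HUES66) and -0.18 (HEK293 to HUES66) on the log2 scale. Under it SNHG15 was no longer 2-fold higher in HEK293 than in HUES66. The single count in which HUES66 was higher than A375, SNHG15 at 2.04 times (1.54 to 2.74), fell under 2-fold with the mean of the 3 HUES66 controls (log2 ratio -0.50).

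In the A375 fractions the spliced RNA of 7 hosts had a higher share of the reads in the cytoplasm and that of 3 hosts in the nucleus. SNHG16 had 45.08 CPM in the nuclear and 198.4 CPM in the cytoplasmic library, a nuclear to cytoplasmic ratio of 0.227 (95% exact interval 0.201 to 0.256). SNHG6 (0.243, 0.224 to 0.262) and SNHG5 (0.256, 0.240 to 0.272) were close to it, and their intervals overlapped with each other. These 3 ratios lay at the 1.89th, 2.37th and 2.76th percentile of all 12760 genes with at least 20 reads in the fractions together. GAS5 (0.427, 0.415 to 0.439) and SNHG7 (0.429, 0.366 to 0.501) lay together at a higher ratio. SNHG15, from 43 nuclear reads, had 0.501 (0.355 to 0.692), and SNHG8 had 0.612 (0.550 to 0.679).

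The 3 hosts with more in the nuclear library were SNHG3, SNHG12 and SNHG1. SNHG3 had 54.62 CPM in the nuclear and 12.89 CPM in the cytoplasmic library, a ratio of 4.24 (3.62 to 4.97). SNHG12 had 54.16 against 20.9 CPM (2.59, 2.25 to 2.98), and SNHG1 had 137.6 against 86.91 CPM (1.58, 1.46 to 1.71). For SNHG3 the ratio belongs to 2 introns shared with RCC1, at 4.54 (3.53 to 5.86) and 4.04 (3.29 to 4.97). The total RNA library lay between the fractions for 10 of 10 hosts. At 2-fold, 2 of 10 hosts were higher in the nuclear and 5 of 10 in the cytoplasmic library, where 22.7% and 19.3% of all genes were. SNHG15 sat just inside 2-fold, at 1.995 times in favour of the cytoplasm.

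The members' median log2 ratio was -1.1, against -0.11 over all 12760 genes. Other lists, chosen by function, are given for scale. Of 13 other noncoding hosts (TAF1D, which also encodes a protein, is among them), 7 were at least 2-fold higher in the cytoplasm and 0 in the nucleus, with a median of -1. Of 40 protein-coding snoRNA hosts, mainly ribosomal protein and translation factor genes, 25 were higher in the cytoplasm and 1 in the nucleus, with a median of -1.36. The 620 other noncoding genes had a median of -0.44, with 207 at least 2-fold higher in the cytoplasm and 119 in the nucleus. There was 1 library per fraction, so these are descriptions with no test.

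**Figure D2:**
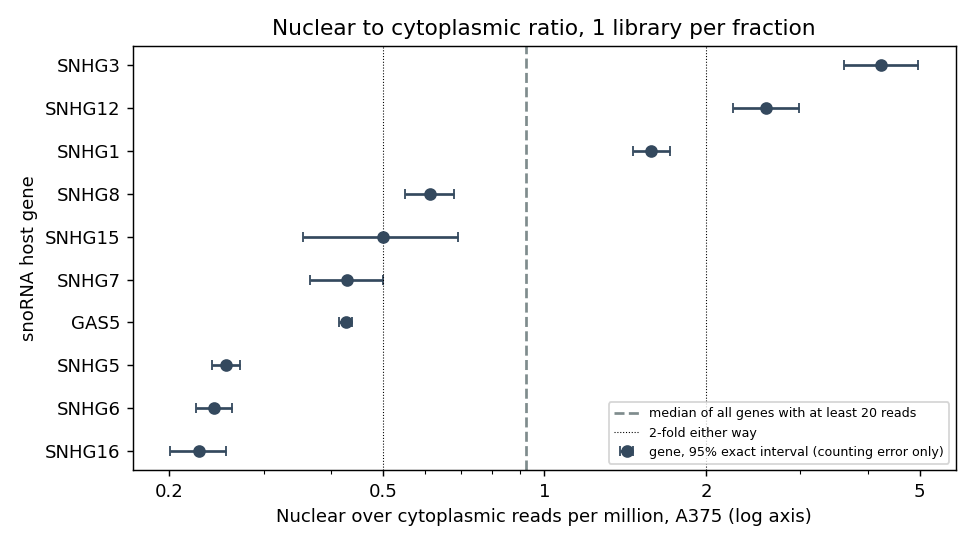
Nuclear to cytoplasmic ratio of each host gene in A375 on a log axis, with 95% exact intervals that cover counting error only, from 1 library per fraction. SNHG3, SNHG12 and SNHG1 lie above 1, and SNHG16, SNHG6 and SNHG5 lie lowest, near 0.25.

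Within a host the introns did not all have the same ratio. Over the members, 48 introns that hold a snoRNA had a median nuclear to cytoplasmic ratio of 0.470 and 20 introns without one had 0.361. These pooled values depend on which hosts supply the introns, and single hosts went both ways. The median was higher with a snoRNA in GAS5 and SNHG8 (0.619 against 0.362) and about equal in SNHG5 (0.240 and 0.239). It was lower with a snoRNA in SNHG1, SNHG6, SNHG7, SNHG12 and SNHG15 (0.293 against 0.514). The introns of 1 gene share its RNA and are not replicates. In GAS5 the 12 introns with a snoRNA ranged from 0.378 to 0.590. In SNHG12 the intron of SNORA61 had 0.963 (0.492 to 1.77), while the intron nearest the 5′ end of those well read, chr1:28581230-28581589, had 4.19 (2.84 to 6.22).

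SNHG1 showed the widest spread. From its 5′ end, the intron of SNORD26 had a ratio of 2.72 (1.93 to 3.82), that of SNORD27 3.81 (2.61 to 5.59) and that of SNORD28 3.71 (2.60 to 5.29). Downstream, the intron of SNORD29 had 1.13 (0.842 to 1.50), that of SNORD30 1.46 (1.18 to 1.81) and that of SNORD22 1.35 (1.08 to 1.68). The most-read intron of SNHG1, chr11:62852682-62852810, lies further downstream and had 1.93 (1.60 to 2.33), so the ratios did not fall steadily from 5′ to 3′. The long intron made when the 51-base exon is left out (chr11:62854552-62855132), which uses the donor of the SNORD27 intron and the acceptor of the SNORD28 intron, had 0.434 (0.230 to 0.759). Thus the form that keeps the exon had a higher CPM in the nuclear library, and the form that skips it had a higher CPM in the cytoplasmic library, with intervals that do not overlap.

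The same exon separated the cell lines. Of the reads from the donor before it, 14 of 75 in A375 nuclear RNA were joined past the exon (18.7%, 95% Wilson interval 11.5% to 28.9%). In A375 total RNA 23 of 85 were (27.1%, 18.8% to 37.3%), and in A375 cytoplasmic RNA 111 of 166 (66.9%, 59.4% to 73.6%). HEK293 total RNA had 52 of 104 reads of SNHG1 joined past it (50%, 40.6% to 59.4%). Wild-type HUES66 had 17 of 460 (3.70%, 2.32% to 5.84%), and the 14 control and knockdown libraries had 3.05% to 11.9%. The HUES66 libraries were thus all below the HEK293 and A375 libraries in SNHG1. The shift within A375 went with the compartment, and the whole-cell libraries of the lines differed as well.

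**Figure D3:**
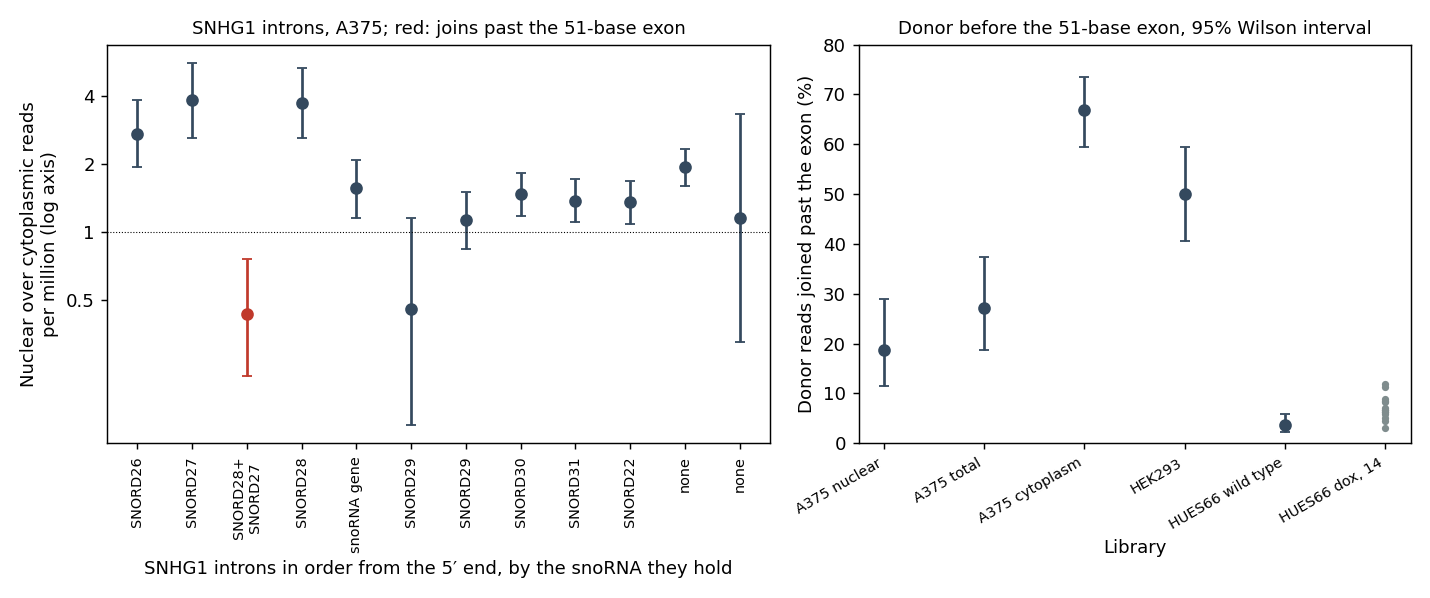
SNHG1 in A375 and across lines. Left: nuclear to cytoplasmic ratio of each intron on a log axis with 95% exact intervals, from 5′ to 3′. The intron that leaves out the 51-base exon lies at 0.434, below the SNORD27 and SNORD28 introns at 3.81 and 3.71. Right: percent of reads from the donor before the exon that were joined past it, 1 point per library with 95% Wilson intervals for the A375, HEK293 and wild-type HUES66 libraries, highest in A375 cytoplasm at 66.9%.

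The knockdown comparisons asked whether lowering RBFOX2, or 1 of its isoforms, changed the hosts. In total KD 3 hosts rose and 1 fell, all by small amounts, in an edgeR quasi-likelihood test with Benjamini-Hochberg adjustment over 13629 genes. Control and total KD meet in the 48 hr and 96 hr sets only. In these bulk samples a change in the RNA of each cell and a change in the share of cells that express it cannot be told apart.

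GAS5 had 721 CPM in the control and 832 CPM in total KD at 48 hr, and 390 and 489 CPM at 96 hr, which are ratios of 1.16 and 1.25. Its fitted log2 change was 0.30 (SE 0.038, edgeR adjusted p = 1.66e-06). SNHG6 had 115 and 129 CPM at 48 hr and 84.4 and 109 CPM at 96 hr, a log2 change of 0.24 (SE 0.052, edgeR adjusted p = 0.00641). SNHG5, host of SNORD50A and SNORD50B, had 479 and 525 CPM at 48 hr and 530 and 621 CPM at 96 hr. Its log2 change was 0.18 (SE 0.035, edgeR adjusted p = 0.00165). SNHG16, host of the SNORD1 family, moved the other way, from 81.9 to 72.8 CPM at 48 hr and from 85.4 to 68.8 CPM at 96 hr, a log2 change of -0.26 (SE 0.055, edgeR adjusted p = 0.00574). All 4 moved the same way in 2 of 2 sets. The 6 others did not pass, with log2 changes of 0.05 (SNHG8) to 0.28 (SNHG7, edgeR adjusted p = 0.294). Of these others, SNHG1, SNHG3, SNHG7, SNHG12 and SNHG15 were also higher in 2 of 2 sets.

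So 3 of 10 hosts were called higher and 1 of 10 lower, where 1.01% and 1.18% of all genes were. The members' median log2 change was 0.17, against -0.00026 over all genes. DESeq2 called 4 of them as well. Without the 96 hr control library the count was 2, since SNHG16 (adjusted p = 0.0528) and SNHG6 (adjusted p = 0.198) did not pass. SNHG16 also did not pass without the 96 hr total KD library (adjusted p = 0.0622). With no block for library set GAS5 alone passed, and SNHG5 (adjusted p = 0.116), SNHG6 (adjusted p = 0.245) and SNHG16 (adjusted p = 0.372) did not. With only the most-read intron of each gene in place of the sum the count was 2, without SNHG5 (adjusted p = 0.0797) and SNHG6 (adjusted p = 0.334).

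With either isoform knockdown none of the 10 hosts passed. Log2 changes ranged from -0.09 to 0.12 for N-short KD and from -0.07 to 0.16 for N-long KD. At an unadjusted p under 0.05 there were 0 and 2 hosts, and DESeq2 called 0 in either. Over all genes edgeR called 0% for N-short KD and 0.022% for N-long KD, so these contrasts called almost nothing at all. The isoform knockdowns meet in 4 sets, and N-long KD set against N-short KD gave 0 of 10 hosts (1 at an unadjusted p under 0.05, DESeq2 0), with log2 differences of -0.13 to 0.09 and 0.0147% of all genes called. Whether the total KD change of a host differs from its N-long KD change was not tested. RBFOX2 itself changed by -0.82 with total KD (edgeR adjusted p = 1.14e-08), by -0.57 with N-long KD (edgeR adjusted p = 3.48e-05) and by -0.06 with N-short KD (edgeR adjusted p = 0.998). These values sum all RBFOX2 introns and do not show the level of either isoform. Whether the N-short RNA was lowered was not tested.

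**Figure D4:**
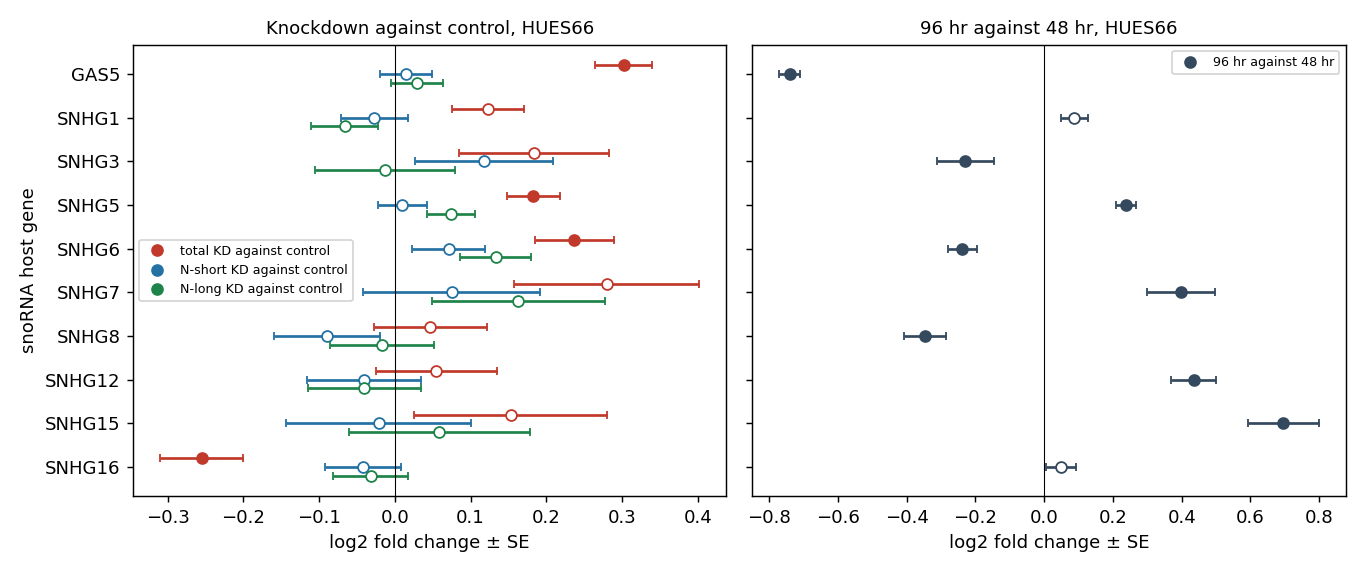
Fitted log2 change of each host gene with its standard error in the knockdown contrasts and in 96 hr against 48 hr, from 1 edgeR fit of 14 libraries, with filled points for hosts that passed. The 96 hr changes of GAS5 (-0.74) and SNHG15 (0.70) are the largest, and the changes with either isoform knockdown lie between -0.09 and 0.16.

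The introns showed the same picture piece by piece in total KD. Of 66 host introns tested, 16 were higher and 1 lower, where 0.447% of 120381 introns were called in either direction. In GAS5 11 of 14 introns rose, by 0.28 (SNORD80 intron) to 0.40 (SNORD74 intron) on the log2 scale. Among introns that passed, the largest rises were the SNHG6 intron chr8:66922726-66925436 (log2 change 0.70, SE 0.135, edgeR adjusted p = 5.82e-04) and the SNHG5 intron chr6:85678189-85678693 (0.58, SE 0.101, edgeR adjusted p = 5.61e-05). The intron that fell was that of SNORD1A, the most-read intron of SNHG16 (-0.30, SE 0.072, edgeR adjusted p = 0.0152). Introns of 1 gene are parts of the same RNA and do not count as separate evidence. Leaving out the control of 96 hr took the count from 17 to 4, and leaving out the 96 hr library of total KD took it to 8. It was 11 when either 24 hr library of these arms, control or total KD, was dropped. The SNORD74 intron of GAS5 did not pass when any 1 of 6 of the 14 libraries was left out (adjusted p = 0.0643 to 0.654), and had an adjusted p of 0.0903 with no block for library set. Without the 96 hr control neither of the introns named for SNHG6 (adjusted p = 0.448) and SNHG5 (adjusted p = 0.125) passed. The same held without the 96 hr total KD library (edgeR adjusted p = 0.147 for the SNHG6 intron and 0.0802 for the SNHG5 intron). No host intron passed for N-short KD, for N-long KD or for their difference (4, 6 and 3 at an unadjusted p under 0.05), where 0.0116%, 0.0449% and 0.0307% of all introns did.

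The splice choices of the hosts, the share of 1 intron among the introns at the same donor or acceptor, gave no call in any knockdown contrast. Of 55 choices tested in 8 hosts, 11 had an unadjusted p under 0.05 with total KD. N-short KD had 2 of these, N-long KD 4, and the comparison of both isoform knockdowns 4. In the same contrasts edgeR called 0.87%, 0.0147%, 0.365% and 0.268% of all 34007 choices, and limma on log2 ratios of reads called 0 host choices in each. Without the 96 hr control 2 host choices were called in total KD. A count of 0 does not show that the choices were alike.

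The authors' deposited tables list splicing events by knockdown and time. Per comparison 193 to 248 of the events in the authors' deposited tables lie in the hosts, none of them in SNHG3, and 0 passed an adjusted p under 0.05 with an inclusion difference of at least 0.1. The same was true at an adjusted p under 0.01. Of all events in the authors' deposited tables, 0.00218% to 0.118% passed the first threshold. The smallest adjusted p of a host event in the authors' deposited tables was 0.0751, for an exon of SNHG6 in total KD at 48 hr with a difference of 0.04.

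The time comparison set the 96 hr libraries against the 48 hr libraries, which share a library series and hold the same 4 arms. Each time is 1 set, and its 4 libraries are different arms. The SDs, SEs and p-values of this comparison therefore do not measure the spread between sets of 1 time. Here 4 hosts were higher and 4 lower at 96 hr, where 29.3% of all genes were higher and 29.7% lower, so the members' share was near the background. The largest change was in GAS5. It had 721, 832, 726 and 703 CPM at 48 hr in control, total KD, N-short KD and N-long KD. At 96 hr it had 390, 489, 412 and 427 CPM in the same order. The groups did not overlap, at 745.4 ± 58.8 CPM (SD, n = 4) and 429.5 ± 42.4 CPM (SD, n = 4), and the log2 change was -0.74 (SE 0.031, edgeR adjusted p = 8.43e-20). The change in GAS5 did not run in order of time. At 24 hr GAS5 had 453 to 479 CPM in 5 of 6 libraries, inside the 96 hr range, and 626 CPM in total KD, between the 96 hr and 48 hr values. In wild-type HUES66 it had 493.8 CPM.

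SNHG15 moved the other way, from 7.69 to 10.1 CPM at 48 hr to 13.6 to 14.4 CPM at 96 hr, with no overlap (log2 change 0.70, SE 0.103, edgeR adjusted p = 6.14e-07). SNHG12 rose from 26.7 to 29.1 CPM to 32.3 to 37.4 CPM, again with no overlap (0.43, SE 0.065, edgeR adjusted p = 8.02e-07). SNHG5 rose from 463 to 525 CPM to 530 to 621 CPM (0.24, SE 0.029, edgeR adjusted p = 1.40e-08). SNHG7, which hosts SNORA17A and SNORA17B, rose in 4 of 4 arms, although its ranges of 11.9 to 16.9 CPM and 16.5 to 20.8 CPM overlapped (0.40, SE 0.098, edgeR adjusted p = 7.71e-04). With no block for library set SNHG7 did not pass (adjusted p = 0.0809).

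SNHG8 fell from 41.7 to 49.4 CPM to 33.5 to 36.5 CPM (-0.35, SE 0.061, edgeR adjusted p = 1.18e-05), and SNHG6 fell from 115 to 129 CPM to 84.4 to 109 CPM (-0.24, SE 0.042, edgeR adjusted p = 1.04e-05). Neither pair of ranges overlapped. SNHG3 was lower in 3 of 4 arms, with overlap (-0.23, SE 0.082, edgeR adjusted p = 0.0166). DESeq2 did not call SNHG3 (adjusted p = 0.123), nor did edgeR with no block for library set (adjusted p = 0.0805). It also did not pass in edgeR without the 48 hr control (adjusted p = 0.0818), the 48 hr N-short KD (adjusted p = 0.0586) or the 96 hr control (adjusted p = 0.106). SNHG1, with 153.3 ± 13.96 CPM (SD, n = 4) and 156.1 ± 4.81 CPM (SD, n = 4), and SNHG16 did not pass. Of the called hosts with SNORD alone SNHG5 rose and SNHG6 fell, and of those with SNORA alone SNHG7 and SNHG15 rose while SNHG3 and SNHG8 fell. The called hosts with both kinds annotated were GAS5, which fell, and SNHG12, which rose. In GAS5 the SNORA lies whole only in an intron with almost no reads.

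The 24 hr libraries come from other library series and were not tested against the later times. Between their replicates SNHG15 was 2.32 and 1.69 times as high in replicate 1 as in replicate 2 (N-short KD and N-long KD), SNHG7 1.56 and 1.65 times, and SNHG1 1.34 and 1.34 times. For SNHG15 and SNHG7 the gap between these replicates of 1 time was as large as that between 48 hr and 96 hr. Culture conditions that differ between sets, other than time, cannot be told apart from time.

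Genes that act on these hosts or their snoRNAs are given from lists chosen by function. Of 8 proteins of the mature snoRNA particle, 7 were higher at 96 hr and 0 lower (median log2 change 0.39), led by NOP56, a core box C/D protein (0.71), and GAR1, a core H/ACA protein (0.48). Of 11 factors that assemble these particles, 6 were higher and 0 lower (median 0.20), led by NOLC1 (0.56) and TGS1 (0.43). Of 15 factors of nonsense-mediated decay and the exon junction complex, 11 were higher and 0 lower (median 0.25), led by MAGOHB (0.71) and EIF4A3 (0.62). Over all genes the median was -0.0077, with 29.3% called higher and 29.7% lower. The particle proteins summed to 1613 to 1661 CPM in 24 hr replicate 1 and 1356 to 1399 CPM in replicate 2. They summed to 1256 to 1325 CPM at 48 hr and 1507 to 1618 CPM at 96 hr. For this list the replicates of 1 time thus lay about as far apart as 48 hr and 96 hr. NOP56 and DKC1 are also on the list of protein-coding snoRNA hosts. The protein-coding snoRNA hosts moved both ways, 17 of 40 higher and 14 lower, from HSPA8 (0.77) to EIF4A2 (-0.77), and of 13 other noncoding hosts 2 were higher, with SNHG11 at 0.52, and 5 lower, with ZFAS1 at -0.48. All these calls are from edgeR with adjustment over all genes. Of 10 stem cell markers, 5 were higher and 2 lower at 96 hr. The genes used as references for the A375 fractions moved as well. All 3 nuclear RNAs tested were higher (MALAT1, 1.77), and of 10 cytoplasmic mRNAs 6 were higher and 3 lower, with VIM, which encodes the filament protein vimentin, at 2.05. MALAT1 and VIM thus changed more than any host gene. Of 3 melanocyte markers tested 1 was lower (PMEL, -0.67), and of 2 kidney markers 0 passed. The part of these genes in the hosts' changes was not tested.

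In total KD these lists together held fewer calls than in the time comparison. Over all genes 1.01% were called higher and 1.18% lower. The lists with a call had 1 to 3 genes called in a direction. With at most 40 genes tested in a list, 1 call alone exceeds this background, so these shares do not show an excess. The remaining lists had no call. Of 13 other noncoding hosts 3 were higher and 0 lower, with C6orf48 at 0.41 and LRRC75A-AS1 at 0.20 the largest. Of 40 protein-coding hosts 1 was higher (HSPA9, 0.15) and 1 lower (EIF4A2, -0.17). Among snoRNA particle proteins FBL, the methyltransferase of box C/D particles, was higher (0.14), and no factor of assembly or of nonsense-mediated decay passed (1 of 11 and 1 of 15 at an unadjusted p under 0.05). Of 10 stem cell markers, 2 were higher, with TDGF1 at 0.17, and of 10 cytoplasmic reference mRNAs 2 were lower, VIM (-0.37) and PKM (-0.12). Their part was not tested.

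Isoform choice differed between the 48 hr and 96 hr sets in 5 hosts. Of the 55 choices tested, 20 were called, 10 in each direction, where 13.2% of all choices were called. Choices at 1 site are complements of each other, so the 20 are fewer independent changes. Limma on log2 ratios called 4, at the first donor of SNHG8 and at 1 acceptor of GAS5, and edgeR called 12 when the N-short KD library of 48 hr was left out.

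SNHG8 had the largest change. From its first donor (chr4:118278793), reads were joined past the 194-base exon to the acceptor after SNORA24 in 50.5%, 44.9%, 60.3% and 58.4% of cases at 48 hr in control, total KD, N-short KD and N-long KD. At 96 hr SNHG8 had 82.6%, 87.3%, 86.9% and 79.7%, with no overlap, and the log2 odds change was 2.18 (SE 0.333, edgeR adjusted p = 6.36e-09, limma adjusted p = 0.00852). The choice rests on 55 to 93 reads per library at that donor. The 24 hr libraries had 74.0% to 84.4%, near the 96 hr values, so the SNHG8 choice did not run in order of time. SNHG8 had 77.3% in wild-type HUES66, 83.4% in A375 and 98.6% in HEK293. As single introns, the one into the exon (chr4:118278793-118278943) fell by 1.78 on the log2 scale (SE 0.278, edgeR adjusted p = 6.36e-08) while the one past it rose by 0.52. More reads left the exon than entered it in every library of these sets, and at the acceptor the share joined from the first donor was 10.1% to 19.8% at 48 hr and 23.3% to 32.5% at 96 hr.

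In GAS5 the change was at the acceptor shared by the introns chr1:173867044-173867959, which holds SNORD74, and chr1:173867044-173867154, which holds none. The short intron took 0.427% to 1.75% of the reads of this GAS5 acceptor at 48 hr and 2.11% to 6.82% at 96 hr, with 3.48% to 9.33% at 24 hr (log2 odds change 1.99, SE 0.492, edgeR adjusted p = 0.00107, limma adjusted p = 0.0302). This rests on 1 to 5 reads of the short intron per library at 48 hr and 3 to 12 at 96 hr. The rest of GAS5 fell together: 12 of its 14 introns were lower at 96 hr, by 0.69 to 0.98 on the log2 scale. Of all 66 host introns tested, 21 were higher and 22 lower at 96 hr, where 32.2% of all introns were called in either direction.

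In SNHG16 the 99-base exon was left out from the first donor in 61.1%, 58.7%, 64.9% and 64.0% of reads at 48 hr and in 54.0%, 43.1%, 57.6% and 53.3% at 96 hr, in the order control, total KD, N-short KD and N-long KD. At 24 hr SNHG16 had 51.03% to 53.2% in replicate 1 and 59.3% to 60.4% in replicate 2, so the replicates of 1 time lay about as far apart as the 48 hr and 96 hr sets. The 48 hr and 96 hr values of SNHG16 did not overlap, and the log2 odds change was -0.59 (SE 0.136, edgeR adjusted p = 4.24e-04). The SNHG16 gene level did not differ between the times, so its isoforms moved without a called change of the sum. In SNHG1 a 47-base exon, chr11:62854018-62854064, next to the intron of SNORD29, was left out in 20.1%, 14.6%, 21.9% and 20.3% at 48 hr and 10.2%, 11.2%, 6.94% and 11.4% at 96 hr (log2 odds change -1.11, SE 0.261, edgeR adjusted p = 5.54e-04), and SNHG1 had 7.78% to 13.3% at 24 hr. In SNHG6 the share of the first donor joined past the middle exon to the acceptor after SNORD87 changed by 0.78 (SE 0.238, edgeR adjusted p = 0.0126). These 3 choices were not among those limma called.

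**Figure D5:**
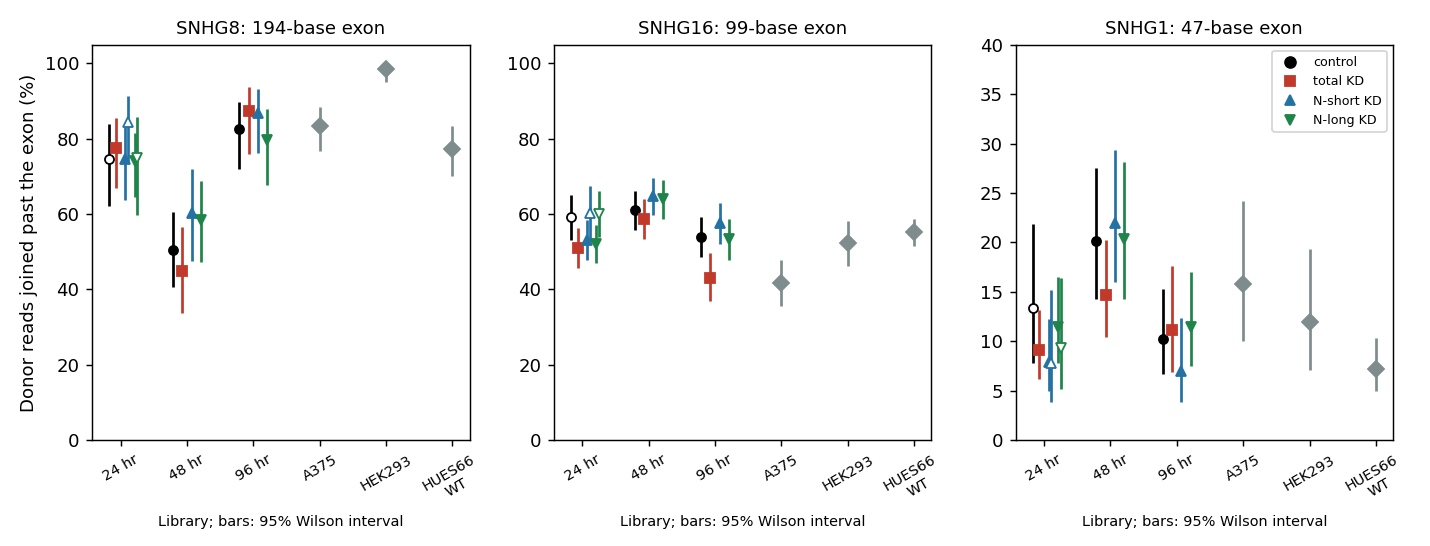
Percent of reads from the donor before an exon that were joined past it, in SNHG8 (194 bases), SNHG16 (99 bases) and SNHG1 (47 bases), 1 point per library with 95% Wilson intervals; open symbols are 24 hr replicate 2. The SNHG8 values lie at 44.9% to 60.3% at 48 hr and 79.7% to 87.3% at 96 hr, with the 24 hr libraries near the latter.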

How the data were processed

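The authors deposited 1 table of raw junction counts per library (spliced reads per junction, not normalised) for 19 libraries. Per the submitters' processing notes STAR 2.7.1, SAMtools 1.9 and hg38 were used, and the junction caller is not given in the sources used here. Introns in the files span 50 to 500000 bases with overhangs of at least 8 bases. The authors also deposited 9 tables of splicing comparisons, whose inclusion differences (other than counts, control minus knockdown on a scale of -1 to 1) and p-values are theirs, and 69 per-library columns of them were not used.

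Junctions were matched to GENCODE 29 introns, and reads were summed per gene where the intron belongs to 1 gene (93.35% to 94.76% of reads); host introns were given to the host. Genes, introns and splice choices (reads of an intron and of the other introns at its donor or acceptor; at least 20 reads per site on average, pooled share 2% to 98%) were fitted over 14 HUES66 libraries by the quasi-likelihood F-test of edgeR 4.0.16 (R 4.3.3; TMM factors; low counts removed by filterByExpr) with terms for library set and arm and adjustment by the Benjamini-Hochberg method at 0.05 over all features. SEs were derived from the F statistic. DESeq2 1.42.0 and limma 3.58.1 were alternatives. CPM are reads scaled to the junction reads of each library. The sets were taken as blocks because libraries of a time and replicate share a library series in the labels. Residuals of libraries of the same set had a median correlation of 0.6 (18 pairs), and those of different sets and arms -0.19 (55 pairs). Ratios between single libraries carry 95% exact intervals, gene ratios for counting 2-fold used a pseudocount of 0.5 reads and at least 20 reads, and shares carry Wilson intervals, all for counting error only. Python 3.11.15 with pandas 2.3.3 and scipy 1.17.1 was used.

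All 10 hosts are named. Of their introns and choices, those that passed are named, at most the 5 largest per contrast beside those shown for their exons, and of the other lists the 2 genes with the largest change that passed. Members, lists and tests were chosen with earlier results of these data known. On simulated data with 200 changed features, the gene test recovered 77.5% of log2 changes of 1 and 62.5% of 0.5 in total KD against control (13391 genes), and 83% (13384 genes) and 68.5% (13390 genes) at 96 hr against 48 hr. The choice test recovered 26% of log2 odds changes of 2 in total KD and 54% at 96 hr against 48 hr (34007 choices). The simulated libraries had no differences between library sets, and the choices had a fixed spread beyond counting error. Recovery in the real data may therefore differ.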

Additional observations from a re-analysis of the deposited data

Results flagged for a closer look

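Both results below are signals in data outside the comparisons, on introns of the hosts that GENCODE 29 does not annotate. In SNHG3 an intron from 28508161 to 28508579 on chromosome 1, which shares the donor of the SNORA73B intron and ends before that intron's annotated acceptor, had 121 reads in wild-type HUES66 and 0 in each of the other 18 libraries. Among those 18 are the 14 other HUES66 libraries. A count of 0 allows up to 3 counts in a library. In SNHG12 an intron from 28578681 to 28579911 had 27 reads in A375 total RNA, 19 in A375 nuclear RNA and 72 in A375 cytoplasmic RNA, against 1 in wild-type HUES66 and 0 in HEK293 and in the 14 control and knockdown libraries. It joins past the exon between the SNORD99 and SNORA61 introns. No group held enough libraries for a test of single outlying libraries.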

How the results depend on the processing

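Most host results kept their direction and side of the threshold under the other settings. With no replicate block (time point in place of library set, which ends the pairing of libraries within a set) the count of hosts called in total KD was 1 in place of 4, that of host introns 5 in place of 17, SNHG7 (adjusted p = 0.0809) and SNHG3 (adjusted p = 0.0805) did not pass at 96 hr against 48 hr, and RBFOX2 no longer passed in N-long KD (-0.614, adjusted p = 0.461) or in N-long KD against N-short KD (-0.522, adjusted p = 1). With the most-read intron 2 hosts were called in total KD. With DESeq2 RBFOX2 did not pass in N-long KD (-0.576, adjusted p = 0.0698). Limma called 4 in place of 20 choices at 96 hr against 48 hr. Across lines, the count of hosts 2-fold higher in HUES66 than in A375 was 0 in place of 1 with the mean of the 3 controls and with the most-read intron. The count 2-fold higher in HEK293 than in HUES66 was 0 in place of 1 with TMM factors, and that higher in HUES66 was 1 in place of 2 with the mean of the controls. The cause was not tested in these cases.

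Leaving out each library in turn gave 2 to 4 hosts, 4 to 17 introns and 0 to 2 choices called in total KD, and 7 to 9 hosts, 37 to 43 introns and 12 to 22 choices at 96 hr against 48 hr. RBFOX2 in N-short KD changed sign when the 24 hr control was left out (0.001) and when the N-short KD library of 96 hr was (0.004), within a range of -0.11 to 0.004. Depth limits SNHG15 and SNHG7 most, with 57 reads for SNHG15 in A375. For the choices, few reads per site limit what could be called.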

Other observations

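The share of reads on unannotated introns differed between the hosts. It was 0.176% of all reads in SNHG5, 0.359% in SNHG15 and 0.369% in SNHG6, and it was 3.74% in SNHG12 and 5.13% in SNHG3.

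As a description over the 14 control and knockdown libraries, which share their sets and depth, the genes whose log2(CPM + 0.5) followed the mean of the 10 hosts most closely were NR2F6 (Pearson r 0.938), SERP1 (0.926), XBP1 (0.92), NUBP2 (0.919) and UQCRC1 (0.916), among 8289 genes with a mean of at least 10 CPM.

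In GAS5 an intron from 173864305 to 173864674, which skips a short exon next to the SNORD47 intron, took 12.8% of the reads of its donor in HEK293 (95% Wilson interval 8.60% to 18.6%), 8.73% in A375 (7.05% to 10.8%) and 3.83% in wild-type HUES66 (2.82% to 5.20%). In SNHG16 reads from the first donor were joined past the 99-base exon in 41.6% of cases in A375 (35.7% to 47.8%), 52.2% in HEK293 (46.3% to 58.1%) and 55.3% in wild-type HUES66 (51.6% to 58.8%). The A375 cytoplasmic value of SNHG16 (40.02%) lay within the interval of the nuclear value (36.1%). The nuclear value lay just below the cytoplasmic interval.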
